A study of Mus musculus with 28 samples.

Results

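The genes described here are the 34 mouse genes of sterol and fatty acid synthesis and of the SREBP pathway that controls them, measured by RNA-seq in sorted brain microglia and astrocytes of 13 mice. They were chosen by gene symbol from knowledge of the pathway, out of 40481 mouse genes in the count table, and each symbol matched 1 row. Earlier results of these data were known when they were chosen. They comprise 18 enzymes of the route from acetyl-CoA to cholesterol, 6 regulators and carriers of the pathway, and 10 genes of fatty acid synthesis, desaturation and elongation. All 34 passed the filter on low counts in both cell types.

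Cells make cholesterol from acetyl-CoA through mevalonate, farnesyl diphosphate, squalene and lanosterol. When membranes hold little sterol, the escort protein SCAP carries SREBP transcription factors from the endoplasmic reticulum to the Golgi, where they are cut and freed to switch on the synthesis genes, while INSIG proteins hold SCAP back when sterol is plentiful. In the adult brain, astrocytes are a main source of cholesterol, which leaves them on lipoproteins that carry apolipoprotein E, and microglia take up lipoprotein and myelin lipid.

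All mice carried APOE4fl/fl, a floxed human APOE4 gene, and all received tamoxifen in 2 doses of 100 mg/kg at 3.8 months of age, with cells sorted 10 days later. The groups were APPPS1::APOE4fl/fl::ALDH1L1-CreERT (4 mice), APPPS1::APOE4fl/fl without Cre (5 mice), APOE4fl/fl::ALDH1L1-CreERT (2 mice) and APOE4fl/fl without Cre (2 mice). Mice without APPPS1 are called amyloid-free below, and mice with or without ALDH1L1-CreERT are called Cre-positive or Cre-negative. APPPS1 mice express mutant human amyloid precursor protein and presenilin 1 in neurons and form amyloid plaques, and the Aldh1l1-driven, tamoxifen-dependent Cre acts in astrocytes, where it deletes the floxed APOE4. Microglia keep their own copy of the gene, with the floxed exons not given in the sources used here. Each mouse gave 1 microglia library, sorted with anti-Cd11b, and 1 astrocyte library, sorted with anti-ACSA-2, from cortex, hippocampus and thalamus. A 14th mouse, number 459 of the Cre-positive APPPS1 group, was left out of every comparison because its 2 libraries went against their labels.

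Library totals were 26162612 to 59238523 counts. Human APOE was between 507 and 924 CPM (reads of a gene, scaled to 1000000 reads of the library) in the 6 Cre-positive astrocyte libraries, against 1050.2 to 1859 CPM in the 7 Cre-negative ones, with no overlap. Where deletion is named below, human APOE RNA was thus lowered in the astrocyte libraries and not absent. In microglia, which the Cre does not target, it was at 328 to 1048 CPM in Cre-positive APPPS1 mice, 110.0 to 814 CPM in Cre-negative APPPS1 mice and 71.8 to 102 CPM in amyloid-free mice. The 15 microglial markers summed to 20380 to 58555 CPM in microglia and 106 to 170.0 CPM in astrocytes, and the 14 astrocyte markers to 152 to 373 CPM in microglia and 34028 to 52237 CPM in astrocytes. The lowest microglial sum, 20380 CPM, was that of mouse 26, which with mouse 22 makes up the Cre-positive amyloid-free group. The microglia of these 2 mice also held more of the average astrocyte marker (mean log2 level 2.83 in mouse 22 and 2.69 in mouse 26, against at most 1.77 in the other microglia libraries). Astrocyte libraries held oligodendrocyte markers in variable amount, with sums from 2733 CPM in mouse 460 to 24088 CPM in mouse 759. Oligodendrocytes make sterol for myelin, and the part of these cells in the astrocyte values was not tested. In sorted bulk samples, fewer cells of a type and less RNA per cell cannot be told apart.

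Microglia held far less RNA of the pathway than astrocytes. On 1 scale over all 26 libraries, 31 of the 34 genes were lower in microglia, 3 were higher, and the median log2 difference (microglia over astrocytes) was -2.24, against -0.18 over all genes tested. Calls were common in this comparison (76.5% of all genes passed an adjusted p of 0.05 in edgeR's quasi-likelihood test), so the count itself says little about the pathway, and the sizes carry the description. In 24 genes every microglia library lay below every astrocyte library, and in 1, Ebp, every microglia library lay above. The share of all genes with such separation was not computed, so these counts describe the 34 genes only.

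The fatty acid desaturase genes Fads2 and Scd1 stood farthest apart. This did not hold for all desaturases, since Fads1 had a log2 difference of -2.21 (microglia over astrocytes). The difference of Scd2 was smaller than those of Acss2 (-4.85), Elovl6 (-4.43) and Fasn (-4.30), which are not desaturase genes. Fads2, the delta-6 desaturase that starts the synthesis of long polyunsaturated fatty acids, was at 0.286, 0.926 and 2.02 CPM (lowest, median and highest of 13) in microglia, against 197, 298 and 408 CPM in astrocytes, a log2 difference of -8.28 ± 0.33 (SE, adjusted p = 6.96e-16, edgeR). Scd1, a stearoyl-CoA desaturase that makes oleic acid, was at 0.163, 0.790 and 3.30 CPM in microglia, against 97.0, 151 and 214 CPM in astrocytes (log2 difference -7.24 ± 0.27, adjusted p = 1.68e-16, edgeR). Both genes were near the limit of detection in microglia, where Scd1 had between 6 and 85 reads per library. The other desaturase of this kind, Scd2, the main brain form in mice, was at 56.0, 108 and 206 CPM in microglia, against 1222, 1739 and 2002 CPM in astrocytes (log2 difference -4.10 ± 0.18, adjusted p = 3.25e-15, edgeR).

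Among the sterol enzymes the difference was widest for Fdft1 (log2 difference -3.77 ± 0.21), which makes squalene, Sqle (-3.70 ± 0.27), the squalene epoxidase, and Msmo1 (-3.63 ± 0.20), the C4-methyl sterol oxidase. It was narrowest for Pmvk (-1.19 ± 0.13), a mevalonate pathway kinase, and Fdps (-1.32 ± 0.18), which makes farnesyl diphosphate. Of the transcription factors, Srebf1, which mainly drives fatty acid genes, differed by -3.52 ± 0.11 and Srebf2, which mainly drives sterol genes, by -2.37 ± 0.14. The 3 genes higher in microglia were Ebp, the sterol isomerase (1.60 ± 0.10), Acly, which makes cytosolic acetyl-CoA from citrate (0.69 ± 0.10), and Insig2, which retains SCAP (0.35 ± 0.10). Their adjusted p were 6.46e-13, 1.6e-06 and 0.00305 in edgeR's quasi-likelihood test.

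**Figure D1:**
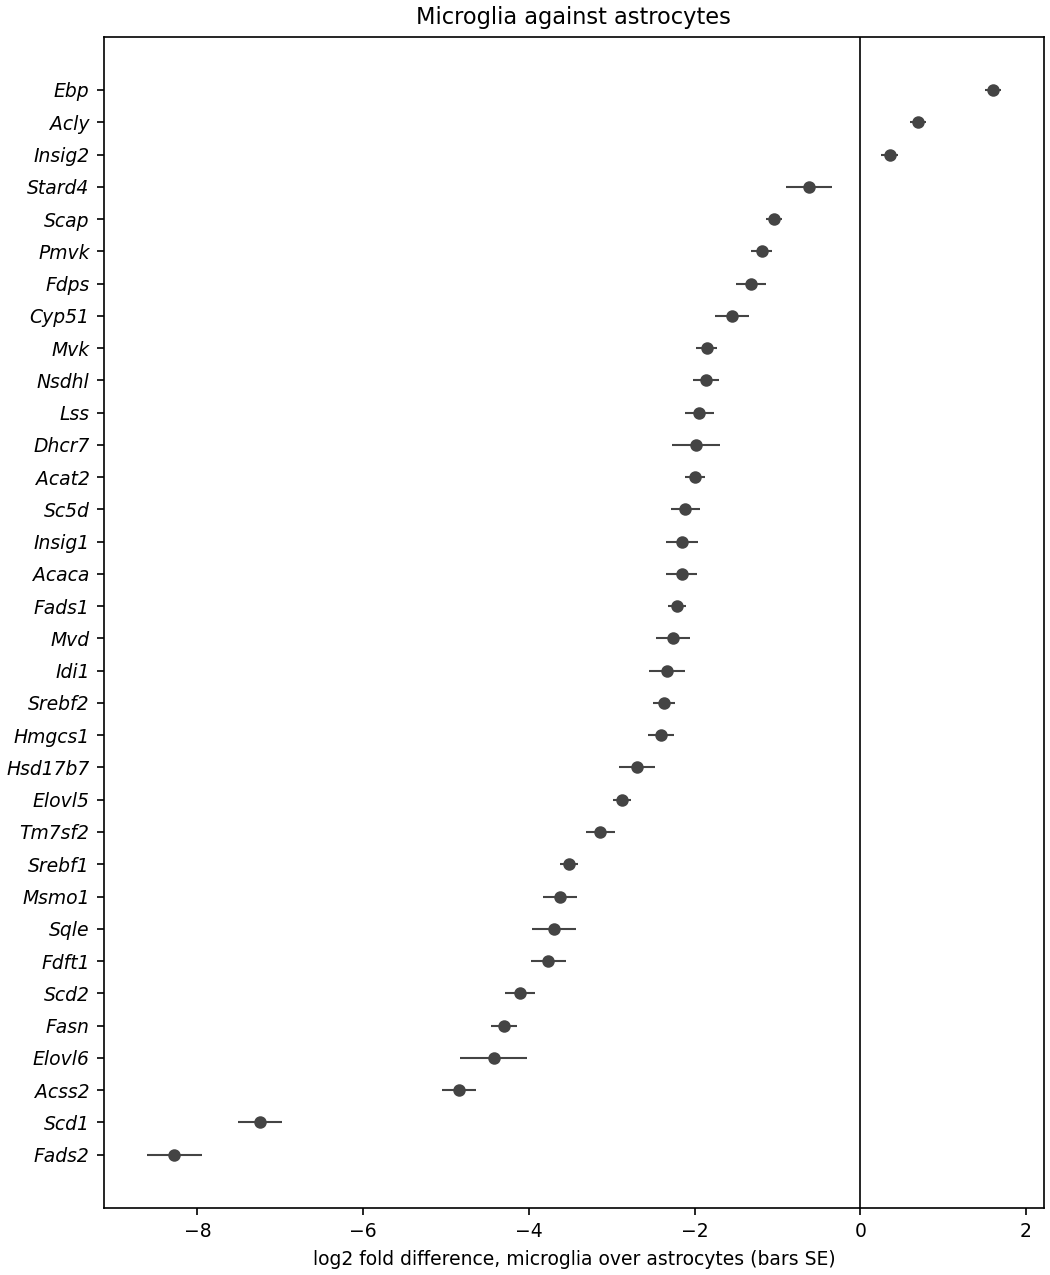
Log2 fold difference of each of the 34 genes, microglia over astrocytes, averaged over the 4 genotype groups (x axis, bars SE, 13 libraries of each cell type), with genes on the y axis ordered by the difference. Ebp, Acly and Insig2 lie right of 0, and Fads2 (-8.28) and Scd1 (-7.24) lie farthest left.

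The order of the genes also differed between the cell types when levels were set per kilobase of exon. In microglia the highest mean level was that of Ebp (45.9 ± 9.33 CPM per kb, SD, n = 13), followed by Insig1 (43.3 ± 14.2 CPM per kb) and Acly (32.4 ± 6.28 CPM per kb). Ebp and Insig1 did not differ beyond their spread. In astrocytes Scd2 came first (308 ± 44.5 CPM per kb), followed by Elovl5 (197 ± 28.8 CPM per kb), an elongase of polyunsaturated fatty acids, Insig1 (182 ± 58.5 CPM per kb) and Msmo1 (143 ± 48.1 CPM per kb). Elovl5 and Insig1 did not differ beyond their spread there.

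Amyloid went with more RNA of the pathway in microglia. Of the 34 genes, 11 rose in APPPS1 microglia and none fell (edgeR, averaged over the Cre states, 9 APPPS1 and 4 amyloid-free libraries), where 9.58% of all 17593 genes tested passed the same threshold in either direction. The median log2 fold change was 0.67 over the 34 genes and -0.05 over all genes, and 30 of the 34 estimates were positive. The 11 were Mvk, Fdps, Fdft1, Cyp51, Msmo1, Hsd17b7, Ebp and Sc5d among the 18 sterol enzymes, Srebf1 among the 6 regulators, and Acaca and Scd2 among the 10 fatty acid genes.

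Of the early enzymes, Mvk, which phosphorylates mevalonate, was at 8.74, 10.4 and 13.3 CPM (lowest, median and highest of 9) in APPPS1 microglia, against 5.23, 4.10, 10.5 and 8.27 CPM in amyloid-free microglia of mice 22, 26, 465 and 759. Fdps, which joins isoprene units into farnesyl diphosphate, was at 33.8, 48.9 and 102 CPM in APPPS1 microglia, against 19.4, 16.9, 22.9 and 18.6 CPM in amyloid-free microglia of the same mice. Every APPPS1 library lay above every amyloid-free library for Fdps, and mouse 465 lay inside the APPPS1 range for Mvk. The log2 fold changes were 1.51 ± 0.26 for Fdps (SE, adjusted p = 0.00493) and 0.65 ± 0.16 for Mvk (adjusted p = 0.0251), both edgeR. Exons of Fdps share 1124 bases with Gm43738 on the same strand, so reads there cannot be assigned to Fdps alone. Gm43738 was not among the genes tested.

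Cyp51, the lanosterol demethylase at the entry to the cholesterol-specific steps, was at 29.4, 44.6 and 86.9 CPM in APPPS1 microglia, against 16.2, 10.8, 35.1 and 19.5 CPM in amyloid-free microglia of mice 22, 26, 465 and 759. Msmo1 was at 50.2, 80.5 and 131 CPM in APPPS1 microglia, against 40.9, 37.7, 56.3 and 45.0 CPM in amyloid-free microglia. Sc5d, a sterol desaturase near the end of the route, was at 41.9, 63.6 and 118 CPM in APPPS1 microglia, against 35.9, 32.2, 42.6 and 30.4 CPM in amyloid-free microglia. In all 3 the amyloid-free library of mouse 465 reached into the APPPS1 range, and the microglia of mice 774 and 779, both Cre-negative APPPS1, were the highest of all. The log2 fold changes were 1.34 ± 0.31 for Cyp51 (adjusted p = 0.0181), 0.91 ± 0.23 for Msmo1 (adjusted p = 0.0258) and 0.98 ± 0.24 for Sc5d (adjusted p = 0.0241), all edgeR.

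Hsd17b7, a ketosteroid reductase of the demethylation complex, rose by a log2 fold change of 1.45 ± 0.35 (adjusted p = 0.0215, edgeR), with 4.84 to 16.2 CPM in APPPS1 microglia and 1.23 to 5.32 CPM in amyloid-free microglia. Fdft1 rose by 0.91 ± 0.27 (adjusted p = 0.0476) and Ebp by 0.44 ± 0.12 (adjusted p = 0.0368). Fdft1 shares 774 exon bases with Ctsb on the opposite strand, and Ctsb, a cathepsin gene far more abundant in microglia, rose by 1.43 ± 0.23 in the same fit, so without knowledge of the strand setting the reads of the 2 genes cannot be told apart there. The other 10 sterol enzymes did not pass, 9 of them with unadjusted p under 0.05 (27.2% of all genes) and positive estimates, such as Dhcr7, the last reductase (1.36 ± 0.42, adjusted p = 0.0539), and Sqle (1.20 ± 0.38, adjusted p = 0.0601). Dhcr7 was at 34.9, 29.0 and 70.7 CPM in mice 469, 774 and 779, and between 5.37 and 20.9 CPM in the other 10 microglia libraries.

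The fatty acid genes were split. Acaca, the acetyl-CoA carboxylase that commits carbon to fatty acids, was at 10.1, 17.1 and 29.6 CPM in APPPS1 microglia, against 3.11, 5.98, 2.28 and 4.58 CPM in amyloid-free microglia of mice 22, 26, 465 and 759, with no overlap. Its log2 fold change, 2.19 ± 0.35 (adjusted p = 0.00322, edgeR), was the largest of the 34. Scd2 was at 60.1, 104 and 169 CPM in APPPS1 microglia, against 82.1, 62.2, 53.7 and 47.5 CPM in amyloid-free microglia, overlapping in mice 22 and 26 (log2 fold change 0.92 ± 0.25, adjusted p = 0.0335, edgeR). The synthase gene Fasn did not pass (0.66 ± 0.23, adjusted p = 0.0803), and neither did Acly (0.22 ± 0.14, adjusted p = 0.357) or the elongase gene Elovl5 (0.02 ± 0.15, adjusted p = 0.956).

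Among the regulators, Srebf1 was at 19.3, 25.2 and 32.9 CPM in APPPS1 microglia, against 14.4, 17.2, 15.7 and 17.1 CPM in amyloid-free microglia, again with no overlap (log2 fold change 0.69 ± 0.17, adjusted p = 0.0227, edgeR). With Fdps and Acaca it made 3 of the 34 genes in which all 9 APPPS1 libraries lay above all 4 amyloid-free libraries, a pattern found in 2.76% of all genes tested. Srebf2 had a like estimate with an adjusted p of 0.0592 (0.69 ± 0.22). Insig1, a target as well as a brake of the pathway, was at 67.3 to 196 CPM in APPPS1 microglia and 84.8 to 122 CPM in amyloid-free microglia and did not pass (0.27 ± 0.26, adjusted p = 0.529).

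Only 4 amyloid-free libraries entered this comparison. Without mouse 26 or without mouse 759, 2 of the 34 genes passed, Acaca and Fdps each time, 7 passed without mouse 465 and 17 without mouse 469, while DESeq2 called 20 of the 34, all higher. Markers moved with the comparison. In APPPS1 microglia 7 of 14 astrocyte, 4 of 10 endothelial and 3 of 10 neuron markers fell, and 1 astrocyte marker rose. Of 3 oligodendrocyte precursor markers 1 rose and 1 fell, and 1 of 6 border macrophage markers fell. Of the 15 microglia markers 7 rose, and 13 had positive estimates. A covariate was formed from the mean level of other cells' markers, without microglia and border macrophage markers. With it 0 of the 34 passed and their median log2 fold change was 0.39. The called genes split under the covariate, since the estimates were 2.32 ± 0.72 for Acaca and 0.71 ± 0.33 for Srebf1, near those without it, but 0.60 ± 0.57 for Hsd17b7, 0.32 ± 0.50 for Fdft1 and 0.43 ± 0.44 for Sc5d, with wider errors throughout the 11. The summed astrocyte markers were 152 to 243 CPM in APPPS1 microglia and 244 to 373 CPM in amyloid-free microglia. Astrocytes hold more of 31 of the 34 RNAs than microglia do, and the part of such RNA in the result was not tested further.

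**Figure D2:**
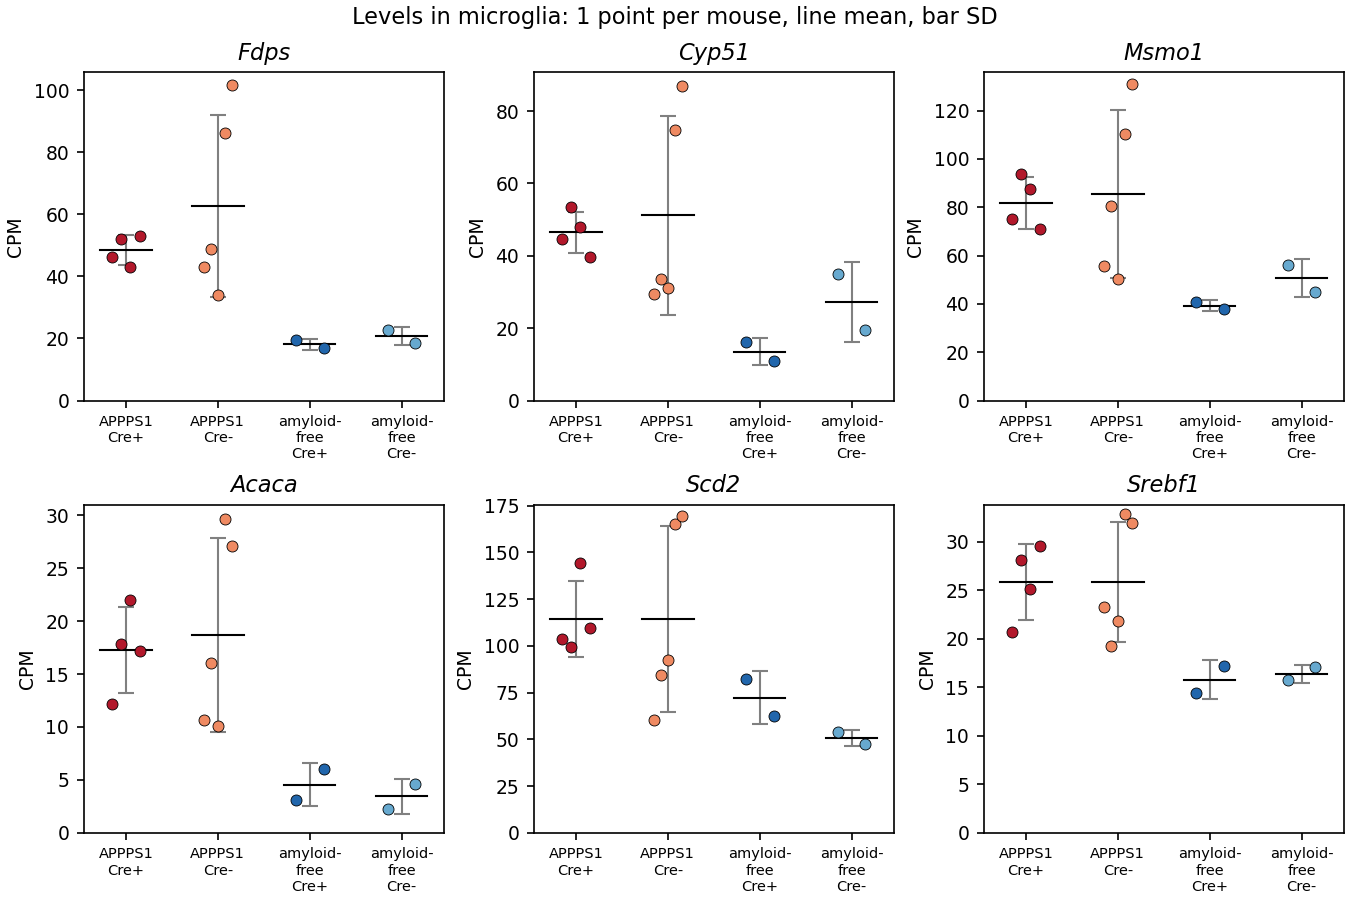
Levels of 6 of the genes in microglia in CPM (y axis from 0), by genotype group on the x axis, with 1 point per mouse, a line at the group mean and a bar for the SD. The 4 amyloid-free points of Fdps, Acaca and Srebf1 lie below all 9 APPPS1 points, and 2 Cre-negative APPPS1 mice are highest for Fdps, Cyp51 and Msmo1.

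Within Cre-positive mice, 5 of the 34 genes rose in APPPS1 microglia and 1 fell (7.05% of all genes passed). The 5 were Cyp51 (log2 fold change 1.78 ± 0.45, adjusted p = 0.0344), Acaca (1.93 ± 0.49, adjusted p = 0.0349), Hsd17b7 (1.96 ± 0.52, adjusted p = 0.0380), Fdps (1.42 ± 0.37, adjusted p = 0.0369) and Mvk (1.07 ± 0.24, adjusted p = 0.0246) in edgeR. Scd1 fell, at 0.860, 0.137, 0.363 and 0.786 CPM in Cre-positive APPPS1 microglia of mice 443, 458, 460 and 475, against 2.34 and 2.91 CPM in Cre-positive amyloid-free microglia of mice 22 and 26 (log2 fold change -2.28 ± 0.60, adjusted p = 0.0370). Those 2 libraries are the pair with the highest mean log2 level of astrocyte markers, and Scd1 is at 97.0 CPM or more in astrocytes. By the sum of these markers they were not the highest, at 366 CPM in mouse 22 and 244 CPM in mouse 26. The sums were 373 and 330 CPM in Cre-negative amyloid-free microglia of mice 465 and 759, where Scd1 was at 0.457 and 0.671 CPM. The part of astrocyte RNA in the Scd1 values was not tested on its own. In 18 of the 34 genes all 4 Cre-positive APPPS1 libraries lay above both amyloid-free ones, as in 16.7% of all genes. Without mouse 26, 458 or 475, 0 of the 34 passed, 3 passed without mouse 460, and DESeq2 called 12. Markers of other cells moved with this comparison too, with 10 of 14 astrocyte and 6 of 10 endothelial markers lower and 7 of 15 microglia markers higher by the test. With their mean level as a covariate 0 of the 34 passed, the median log2 fold change was 0.16, against 0.57 without it, and the estimates were 0.43 ± 0.98 for Hsd17b7, 0.80 ± 0.94 for Cyp51, 0.79 ± 0.83 for Fdps, 0.82 ± 0.52 for Mvk, -1.21 ± 1.44 for Scd1 and 2.15 ± 1.20 for Acaca.

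Within Cre-negative mice none of the 34 passed (0.313% of all genes did), with 14 at an unadjusted p under 0.05 (11.0% of all genes) and 6 called by DESeq2. The estimates were positive in 31 of 34 with a median of 0.62, and they were largest for Acaca (2.45 ± 0.50, adjusted p = 0.0580), Dhcr7 (1.65 ± 0.59, adjusted p = 0.308) and Fdps (1.59 ± 0.37, adjusted p = 0.0927). With the mean level of other cells' markers as a covariate the median was 0.64, and 0 of the 34 passed. The 2 amyloid-free mice differed from each other, with Cyp51 at 35.1 CPM in mouse 465 and 19.5 CPM in mouse 759, and Sqle at 12.9 CPM and 4.45 CPM in these mice. The difference between the amyloid effects of the 2 Cre states was tested as an interaction, which called 0 of the 34 (0% of all genes passed), with 2 at an unadjusted p under 0.05 (8.68% of all genes) and 0 called by DESeq2. At that unadjusted threshold 10 of 14 astrocyte and 4 of 10 endothelial markers were negative. Positive were 5 of 6 border macrophage and 4 of 15 microglia markers. With the marker covariate the median of the 34 was -0.34, against 0.03 without it. The part of these markers was not tested further.

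Because many sterol enzymes moved in 1 direction, the promoters of a few of them were read for the letters of the sites that SREBP and its partner NF-Y bind. The RefSeq promoter table (GRCm38.p6, 250 bases before to 50 after each start) held 27 of the 34 genes with 35 starts. The letters TCACNCCAC, searched on both strands for the core sterol regulatory element, were in 1 of these 35 promoters, that of Hmgcs1, and in 1.24% of all 32851. The NF-Y box CCAAT was in 65.7% of the promoters of the 34 genes and in 37.4% of all, and the GC box GGGCGG in 74.3% and 35.7%. The stretches below are the 180 bases before the start of Hmgcs1 (chr13:119690171-119690350, plus strand), Cyp51 (chr5:4104698-4104877, minus strand), Msmo1 (chr8:64733579-64733758, minus strand) and Mvk (chr5:114444089-114444268, plus strand). They are shown 5′ to 3′ on the gene's strand for the gene with the element and for 3 of the 8 sterol enzymes that rose, with the sterol element and CCAAT or its reverse complement in capitals.
Hmgcs1: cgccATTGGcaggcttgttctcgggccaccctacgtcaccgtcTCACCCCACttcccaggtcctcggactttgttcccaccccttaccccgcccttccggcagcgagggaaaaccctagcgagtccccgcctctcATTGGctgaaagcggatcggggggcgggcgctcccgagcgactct
Cyp51: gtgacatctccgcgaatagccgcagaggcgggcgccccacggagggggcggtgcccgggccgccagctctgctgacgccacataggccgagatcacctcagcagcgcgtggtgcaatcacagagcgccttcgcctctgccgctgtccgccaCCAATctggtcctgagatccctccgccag
Msmo1: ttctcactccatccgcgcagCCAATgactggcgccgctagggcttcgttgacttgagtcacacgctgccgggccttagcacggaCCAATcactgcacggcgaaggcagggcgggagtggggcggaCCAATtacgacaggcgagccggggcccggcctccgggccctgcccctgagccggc
Mvk: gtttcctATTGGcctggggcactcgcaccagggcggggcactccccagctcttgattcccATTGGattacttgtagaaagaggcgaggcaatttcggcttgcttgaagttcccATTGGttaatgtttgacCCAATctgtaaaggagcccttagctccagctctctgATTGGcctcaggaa
The element of Hmgcs1 starts at position -137 from the start, and the CCAAT letters occur 2, 1, 3 and 5 times in the stretches of Hmgcs1, Cyp51, Msmo1 and Mvk. A match is a description of these letters, and no match says only that they are not in this window. Other spellings of the sterol element were not searched.

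Deletion of astrocytic APOE4 in APPPS1 mice went with no called change of the 34 genes in microglia (0.00568% of all genes passed), with 0 at an unadjusted p under 0.05 (3.50% of all genes) and 0 called by DESeq2. All 18 sterol enzymes had negative estimates, between -0.87 and -0.03. The libraries of mice 774 and 779, both Cre-negative, were the highest for most of them. For Msmo1, Cre-positive APPPS1 microglia were at 75.2, 93.8, 87.6 and 70.8 CPM, and Cre-negative APPPS1 microglia at 55.8, 80.5, 50.2, 110.1 and 131 CPM, and in none of the 34 genes were the 2 groups apart. In amyloid-free microglia the Cre comparison also called none (0.0114% of all genes passed), with 3 at an unadjusted p under 0.05 (14.8% of all genes) and 1, Mvk, called by DESeq2 (-1.01, adjusted p = 0.0270). Markers moved with it at an unadjusted p under 0.05. Lower were 10 of 15 microglia, 5 of 6 border macrophage and 1 of 14 astrocyte markers. Higher were 7 of 14 astrocyte and 7 of 10 endothelial markers. With the marker covariate the median of the 34 was 0.18, against -0.08 without it. The part of these markers was not tested further.

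In astrocytes no gene of the pathway passed the test for amyloid. Averaged over the Cre states, 0 of the 34 genes passed (0% of all 20052 genes did), with 5 at an unadjusted p under 0.05 (7.03% of all genes), all lower, and 0 called by DESeq2, and 27 of 34 estimates were negative with a median of -0.21. In Cre-negative mice 0 passed (0% of all genes), with 0 at an unadjusted p under 0.05 (4.06% of all genes) and 0 by DESeq2, and the median was 0.06. In Cre-positive mice 0 passed (0.663% of all genes did), but 17 had an unadjusted p under 0.05 (11.7% of all genes), all lower, and the median was -0.50, against 0.05 over all genes. DESeq2 called 7 of them lower in that comparison, Hmgcs1, Srebf2, Insig1, Mvd, Sqle, Idi1 and Fasn, and without mouse 439, whose library enters the estimate of the spread, edgeR called 3, Hmgcs1, Sqle and Lss. With any other single mouse left out, edgeR called 0.

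The Cre comparison in APPPS1 astrocytes asks what deletion of APOE4 in these cells went with. None of the 34 passed (0.00997% of all genes did), while 31 estimates were negative, among them all 18 sterol enzymes, the median was -0.42 against -0.00053 over all genes, and 19 had an unadjusted p under 0.05 (6.70% of all genes), 18 of them lower. This comparison and the amyloid comparison in Cre-positive mice share the 4 Cre-positive APPPS1 libraries, so they are not independent. Hmgcs1, which makes the HMG-CoA used for mevalonate, had the lowest p of the 34. It was at 255, 209, 183 and 229 CPM in Cre-positive APPPS1 astrocytes of mice 443, 458, 460 and 475, against 223, 464, 531, 507 and 379 CPM in Cre-negative APPPS1 astrocytes of mice 439, 447, 469, 774 and 779. Mouse 439 lay among the Cre-positive values and the other 4 Cre-negative mice lay above all of them (log2 fold change -0.94 ± 0.21, adjusted p = 0.588, edgeR). Amyloid-free astrocytes were at 458 and 464 CPM with Cre and 485 and 371 CPM without.

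Fdft1 had the same layout, at 283, 175, 235 and 270.1 CPM in Cre-positive APPPS1 astrocytes, against 234, 465, 509.8, 435 and 420.1 CPM in Cre-negative ones (log2 fold change -0.78 ± 0.21, adjusted p = 0.699). Insig1 was at 614, 440.4, 371 and 325 CPM in Cre-positive APPPS1 astrocytes, against 484, 666, 819, 948 and 837 CPM in Cre-negative ones (-0.78 ± 0.21, adjusted p = 0.699). In both genes mouse 439 was the lowest Cre-negative library and lay inside the Cre-positive range. Without mouse 439, Hmgcs1 passed in edgeR (-1.10, adjusted p = 0.0209), and it passed in DESeq2 with all mice (-0.94, adjusted p = 0.00827).

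Only 4 of the 34 genes had non-overlapping groups in this comparison. Elovl5 was at 742, 605, 733 and 653 CPM in Cre-positive APPPS1 astrocytes, all below the 787, 990.3, 932, 859 and 914 CPM in Cre-negative ones (-0.39 ± 0.10, adjusted p = 0.699). Mvd, a decarboxylase of the mevalonate pathway, and Stard4, a sterol carrier, were also lower in each Cre-positive library. Srebf1 went the other way, at 364, 367, 397 and 395 CPM in Cre-positive APPPS1 astrocytes and 339, 272, 288, 277 and 334 CPM in Cre-negative ones (0.33 ± 0.11, adjusted p = 0.700). Such separation was found in 1.05% of all genes upward and 0.873% downward.

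**Figure D3:**
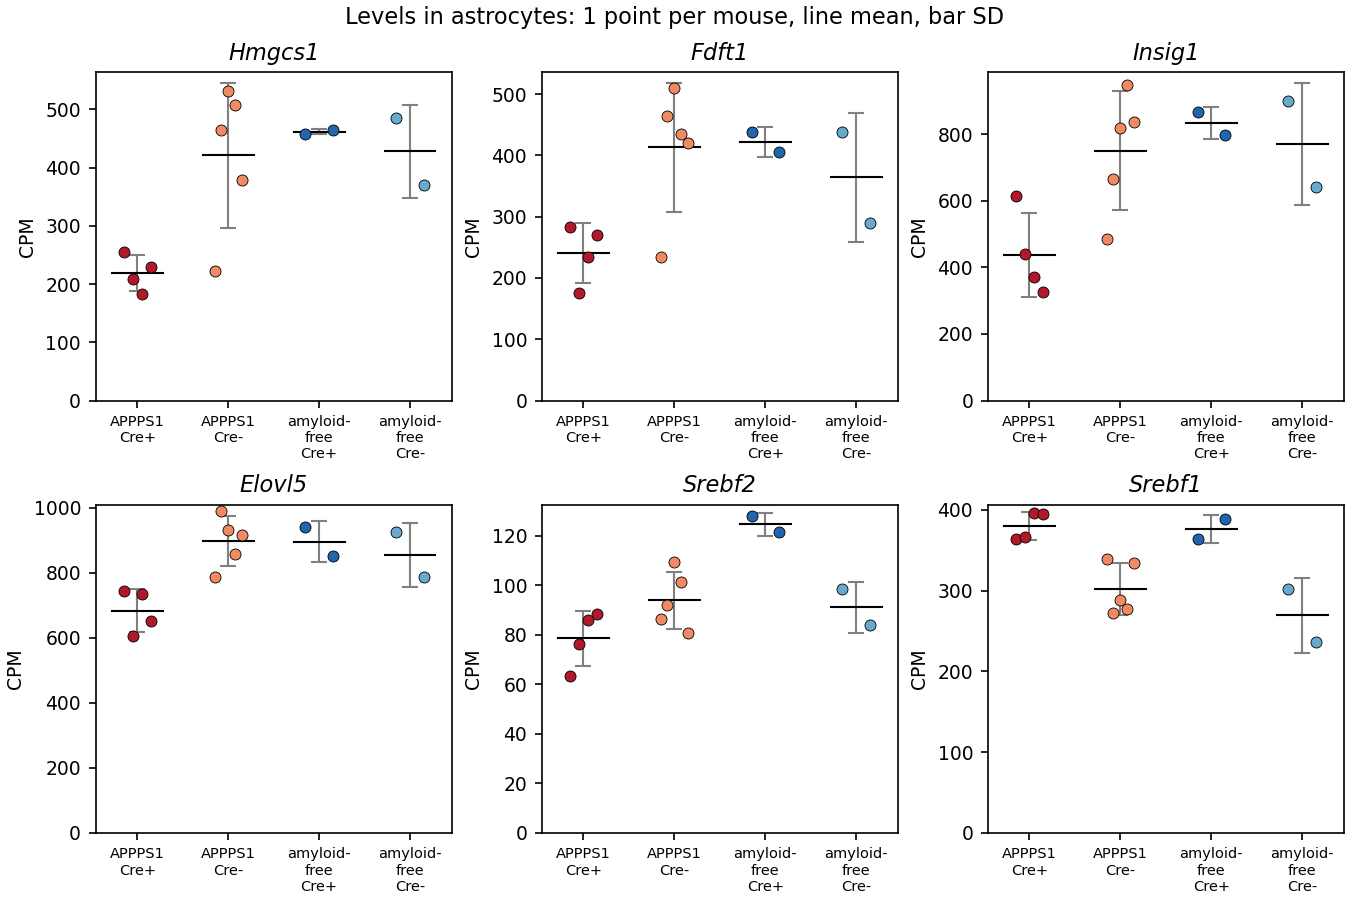
Levels of 6 of the genes in astrocytes in CPM (y axis from 0), by genotype group on the x axis, with 1 point per mouse, a line at the group mean and a bar for the SD. In Hmgcs1 and Fdft1 the lowest of the 5 Cre-negative APPPS1 mice lies within the Cre-positive APPPS1 range, and Srebf1 alone of the 6 is higher in Cre-positive APPPS1 mice.

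Set against the Cre-positive amyloid-free astrocytes, all 4 Cre-positive APPPS1 libraries were lower in 23 of the 34 genes, as in 9.75% of all genes tested. For Srebf2 these were 63.5, 76.4, 85.8 and 88.4 CPM in Cre-positive APPPS1 astrocytes, against 128 and 121 CPM in Cre-positive amyloid-free ones (-0.67 ± 0.16, adjusted p = 0.0743). Markers of other cells moved with this comparison, with endothelial sums of 143 to 794 CPM in Cre-positive APPPS1 astrocytes and 51.7 to 77.5 CPM in Cre-positive amyloid-free ones, 10 of 10 endothelial and 6 of 7 pericyte estimates positive, and 4 of 6 ependymal markers higher by the test. The astrocytes' own markers summed to 35506 to 45490 CPM in Cre-positive APPPS1 astrocytes and 50703 to 51568 CPM in Cre-positive amyloid-free ones, with no overlap. Of these 14 markers, 12 had negative estimates, 5 of them at an unadjusted p under 0.05, and 1 rose by the test. Against Cre-negative APPPS1 astrocytes (286 to 851 CPM) the endothelial sums overlapped. In that Cre comparison 12 of 14 astrocyte marker and 7 of 7 pericyte estimates were negative. There 6 of 6 ependymal and 8 of 10 endothelial estimates were positive, and 0 of these markers passed. Malat1, a nuclear RNA, was at 13982 to 34604 CPM in Cre-positive APPPS1 astrocytes and 12245 to 19193 CPM in Cre-negative APPPS1 ones. With the mean level of other cells' markers as a covariate, 0 of the 34 passed in either comparison. For amyloid in Cre-positive mice the median log2 fold change was then -0.43, against -0.50 without the covariate. For Cre in APPPS1 mice it was -0.43, against -0.42 without. The part of the astrocytes' own markers and of Malat1 in the lower estimates was not tested.

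In amyloid-free astrocytes the Cre comparison called 0 of the 34 (0.204% of all genes passed), with 5 at an unadjusted p under 0.05, all higher, a share close to the 12.9% of all genes, and 1, Fasn, called by DESeq2 (0.67, adjusted p = 0.0354). Fasn was at 322 and 342 CPM with Cre, against 238 and 178 CPM without. In the same comparison 10 of 10 endothelial and 10 of 10 oligodendrocyte estimates were negative, the endothelial ones all at an unadjusted p under 0.05, and 13 of 14 astrocyte marker estimates were positive. The difference between the Cre effects in APPPS1 and amyloid-free astrocytes called 0 of the 34 (0.155% of all genes passed), with 15 at an unadjusted p under 0.05 (11.4% of all genes), all negative, and 1, Mvd, called by DESeq2 (-1.48, adjusted p = 0.0284). Its median over the 34 genes was -0.59, against 0.03 over all genes. Markers moved with it, with 10 of 10 endothelial estimates positive at an unadjusted p under 0.05 (median 2.66), 10 of 10 oligodendrocyte estimates positive, 1 of 6 ependymal markers higher by the test and 13 of 14 astrocyte marker estimates negative. With the mean level of other cells' markers as a covariate, 0 of the 34 passed and their median was -0.47. The part of the markers in the result was not tested further.

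**Figure D4:**
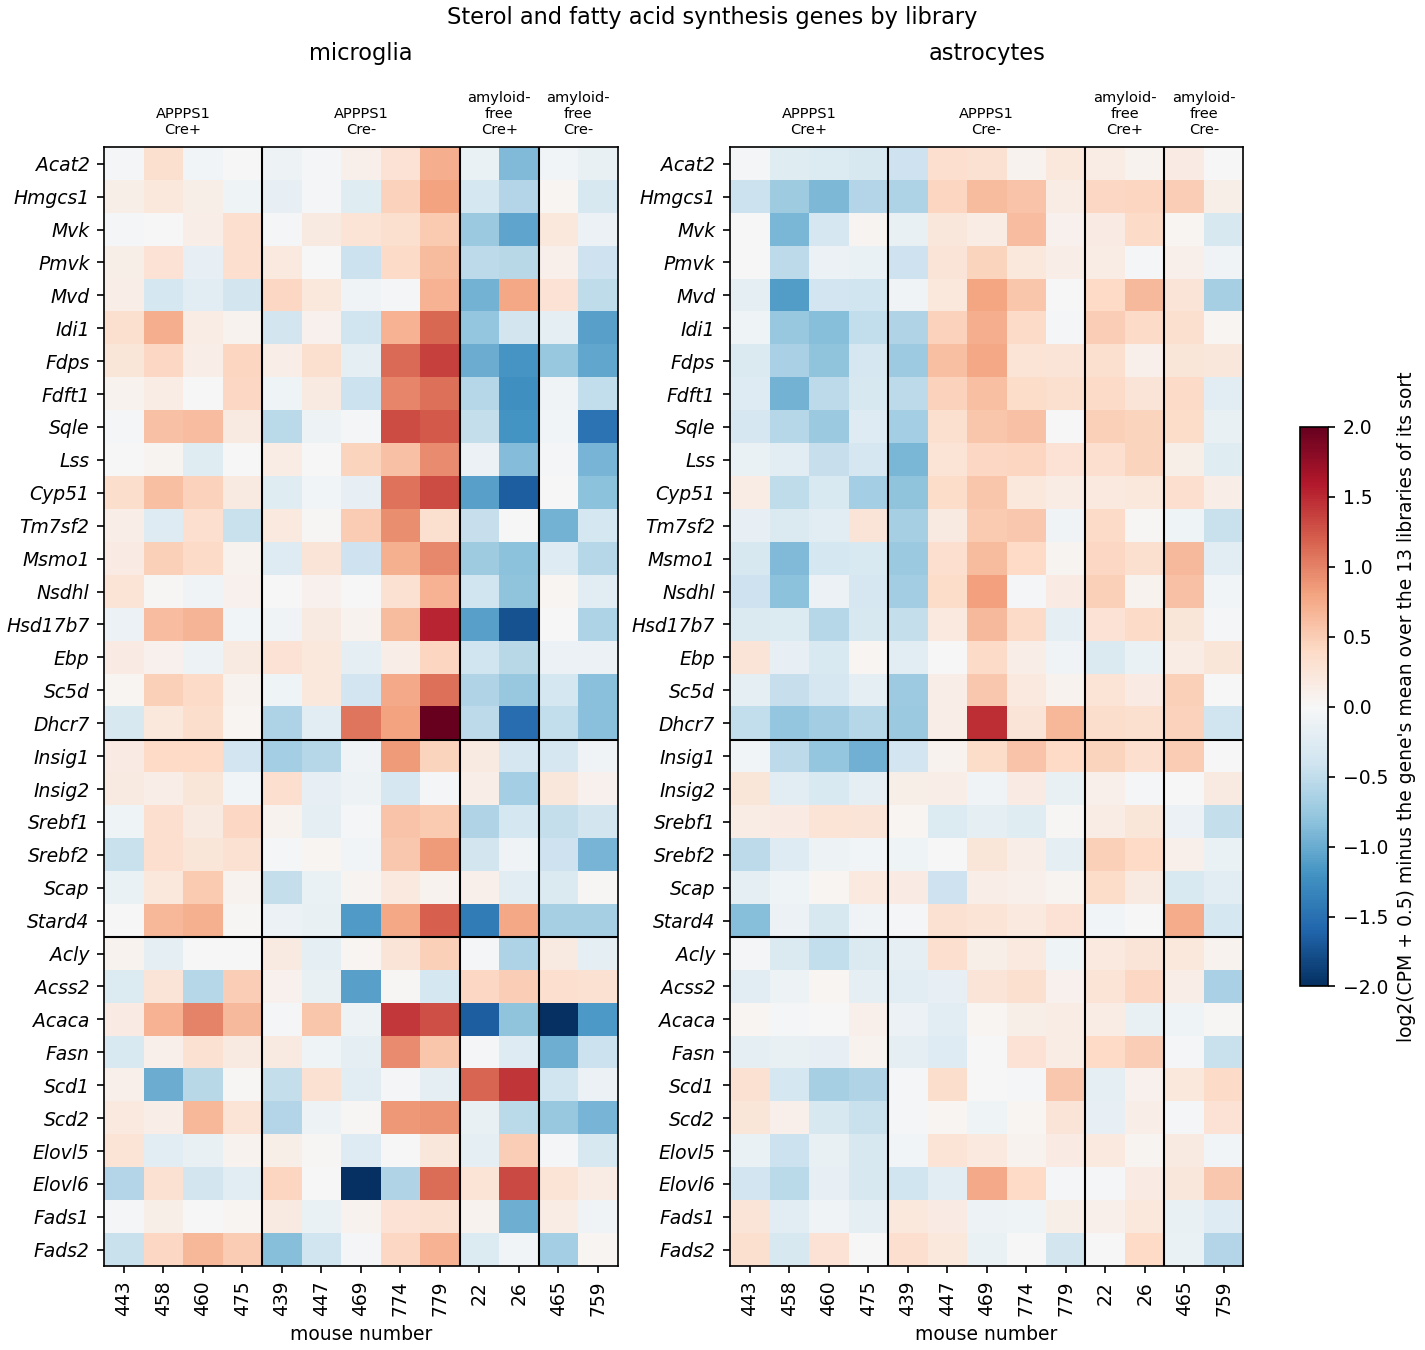
Heat map of the 34 genes (rows, sterol enzymes, regulators and fatty acid genes from top to bottom) in each library (columns, by group and mouse number), coloured by log2(CPM + 0.5) minus the gene's mean over the 13 libraries of its cell type. Red is high: microglia of mice 774 and 779 are the highest for most sterol enzymes, and the 4 Cre-positive APPPS1 astrocyte libraries and that of mouse 439 are blue for most of them.

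The amyloid effect differed between the 2 cell types for part of the genes. A test of the microglial minus the astrocytic effect, in 1 fit of all 26 libraries, called 7 of the 34, all higher in microglia, where 1.5% of all 21612 genes passed. These were Acaca (difference of log2 fold changes 2.19 ± 0.36, adjusted p = 0.00336), Fdps (1.85 ± 0.36, adjusted p = 0.00980), Hsd17b7 (1.79 ± 0.40, adjusted p = 0.0235), Cyp51 (1.66 ± 0.40, adjusted p = 0.0376), Msmo1 (1.38 ± 0.35, adjusted p = 0.0484), Sc5d (1.34 ± 0.33, adjusted p = 0.0382) and Srebf2 (1.03 ± 0.26, adjusted p = 0.0438). Since both cell types came from the same mice, the fit was repeated with the mouse as a block, and 2 passed, Acaca (2.17, adjusted p = 0.0221) and Fdps (1.85, adjusted p = 0.0440). Without mouse 26 or 759, Acaca alone passed, and without any 1 of the other mice between 2 and 11 did. Markers of other cells moved with this comparison too. By the test 5 of 14 astrocyte and 4 of 10 endothelial markers were lower, and 1 of 5 oligodendrocyte precursor markers was higher. The marker covariate was not run across cell types, and the part of these markers in the result was not tested.

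**Figure D5:**
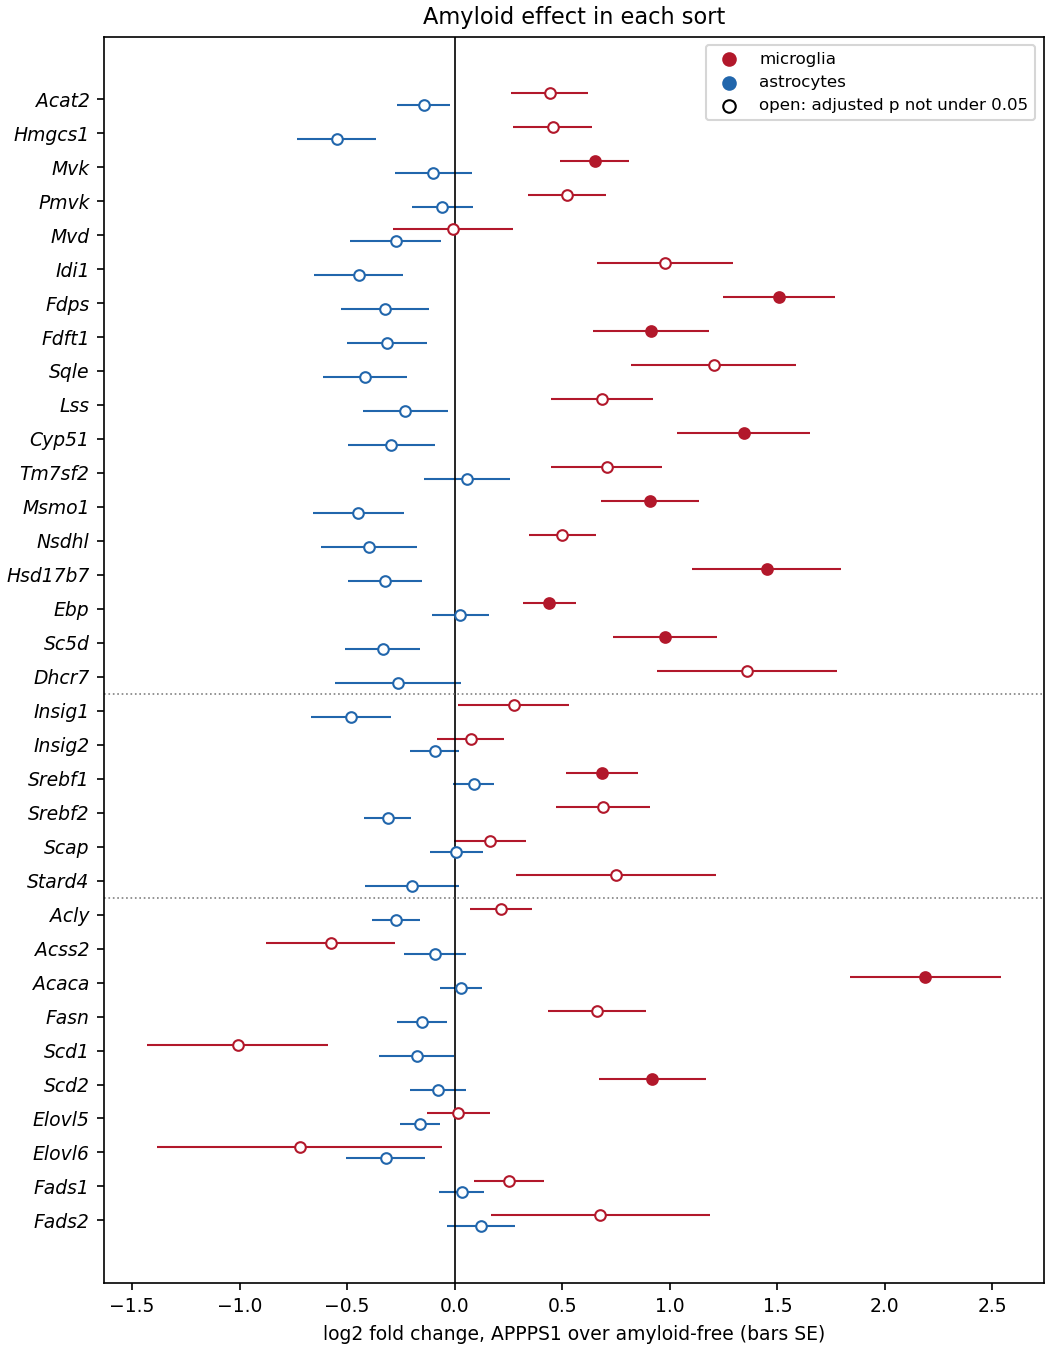
Log2 fold change of each of the 34 genes, APPPS1 over amyloid-free (x axis, bars SE), in microglia (red) and astrocytes (blue), with 9 APPPS1 and 4 amyloid-free libraries of each cell type and filled points for an adjusted p under 0.05. The 11 filled points are all microglial and right of 0, and 27 of the 34 astrocytic points lie left of 0.

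Other genes of lipid synthesis were read in 3 lists beside the 34. In APPPS1 microglia, where 9.58% of all genes passed, 0 of 10 further sterol and isoprenoid genes rose and 1 fell, Lbr, a nuclear envelope protein with sterol reductase activity (log2 fold change -0.70 ± 0.18, adjusted p = 0.0280). Of 11 further regulators of the SREBP pathway, 0 passed, with 0 at an unadjusted p under 0.05 (27.2% of all genes). Of 20 further fatty acid genes 4 rose and 1 fell, beside 2 that rose and 0 that fell among the 10 fatty acid genes of the 34. The 4 that rose act in elongation of long and very long fatty acids, Hacd2 (1.27 ± 0.22, adjusted p = 0.00567), Tecr (0.73 ± 0.16, adjusted p = 0.0144), Hsd17b12 (0.64 ± 0.16, adjusted p = 0.0251) and Elovl1 (0.57 ± 0.15, adjusted p = 0.0320), all edgeR. Acsl6, an acyl-CoA synthetase, fell (-2.89 ± 0.72, adjusted p = 0.0247), with 0 to 0.722 CPM in APPPS1 microglia against 0.402 to 4.49 CPM in amyloid-free microglia, and it is an astrocyte-rich RNA here (log2 difference -10.1 ± 0.44, microglia over astrocytes). In APPPS1 astrocytes none of the 41 genes of the 3 lists passed in the amyloid or the Cre comparison, where 0% and 0.00997% of all genes passed.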

How the data were processed

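The authors deposited 1 table of raw gene counts (whole reads per gene, no normalization) for all libraries against a joint mouse and human annotation. Per the submitters' processing notes the tools were bcl2fastq, STAR, Subread and featureCounts with GRCm38 and GRCh38, with a strand setting not given in the sources used here. Libraries were made with a SMARTer kit, per the labels' protocols. The 258 IDs on several rows had identical counts and were kept once, which left 40481 mouse and 55093 human genes, and only mouse genes were tested.

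Groups followed the genotype and cell type labels, which give 5 mice in each APPPS1 group where the design text gives 4, and each library of a cell type is a separate mouse. Counts were fitted with edgeR 4.0.16 (filterByExpr, TMM, glmQLFit, glmQLFTest, R 4.3.3) in 1 model of 13 microglia libraries, 1 of 13 astrocyte libraries and 1 of all 26, with Benjamini-Hochberg adjustment over all genes tested and calls at 0.05. SE is the log2 fold change over the root of F. CPM are TMM-scaled, within a cell type except where both are compared, and those of human APOE, Malat1 and library totals are unscaled. All 14 comparisons were also run with DESeq2 1.42.0, RLE scaling, no filter, mouse 459 kept and each mouse left out. A covariate of other cells' markers was added only within a cell type, and the mouse as a block only across cell types. The pairing comes from both cell types of 1 animal, and the deviations of the 2 libraries of a mouse correlated between -0.05 and 0.15. The code was tested on simulated data.

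All 34 genes could be named, those called with their values and the others by count with examples of lowest p, and up to 4 called genes per other list. The members, lists and tests were chosen with earlier results of these data known. Promoters came from RefSeq, and Fdps, Fdft1, Scd1, Scd2, Fads1, Sqle and Stard4 were not matched. Read depth limits genes of a few reads, and p-values measure the spread between mice, with only 2 mice per amyloid-free group.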

Additional observations from a re-analysis of the deposited data

Results flagged for a closer look

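In groups of 4 or 5 mice, 6 of 136 gene and group combinations held a library far from the rest of its group, and chance alone flags about 1 in 20. In Cre-positive APPPS1 microglia, Acat2, the cytosolic thiolase gene, was at 31.3 CPM in mouse 458 and between 24.0 and 24.9 CPM in the other 3, and Srebf2 at 10.3 CPM in mouse 443 and between 16.9 and 18.0 CPM in the other 3. In Cre-positive APPPS1 astrocytes, Msmo1 was at 535 CPM in mouse 458 and between 772 and 801 CPM in the others, and Fasn at 256 CPM in mouse 475 and between 215 and 219 CPM in the others. In Cre-negative APPPS1 astrocytes, the lanosterol synthase gene Lss was at 19.8 CPM in mouse 439 and between 45.9 and 50.7 CPM in the other 4, and Scap at 30.9 CPM in mouse 447 and between 42.8 and 46.5 CPM in the other 4.

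The amyloid effect, microglia minus astrocytes, differed by the test of the difference itself in 7 genes, by 2.19 (Acaca), 1.85 (Fdps), 1.79 (Hsd17b7), 1.66 (Cyp51), 1.38 (Msmo1), 1.34 (Sc5d) and 1.03 (Srebf2) on the log2 scale. Both cell types came from the same mice, and with the mouse as a block 2 of these 7, Acaca and Fdps, passed. Astrocyte and endothelial markers also moved with this comparison, and their part in it was not tested.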

How the results depend on the processing

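RLE scaling left each of the 14 counts of called genes within 1.5 times of its value. Of the 34 genes, the amyloid comparison in microglia (11 called) gave 20 with DESeq2, 17 with no filter on low counts, 0 with the marker covariate, 0 with mouse 459 kept as labelled and 2 to 17 with each mouse left out. In Cre-positive microglia (6 called) these were 12, 9, 0, 0 and 0 to 9, and Scd1, -2.28, became 3.66 with mouse 459 kept as labelled. In Cre-negative microglia (0 called) DESeq2 gave 6, no filter 3 and leaving out a mouse 0 to 2. The difference between cell types (7 called) gave 12 with DESeq2, 2 with mouse 459 kept, 2 with the replicate block by mouse and 1 to 11 with each mouse left out. In astrocytes, where 0 were called, DESeq2 gave 7 and no filter 1 for amyloid in Cre-positive mice, and DESeq2 gave 1 each for Cre in APPPS1 mice, Cre in amyloid-free mice and their difference, as it did for Cre in amyloid-free microglia. Leaving out a mouse gave 0 to 3 for amyloid in Cre-positive astrocytes, and 0 to 1 for Cre in APPPS1 astrocytes, their difference from amyloid-free ones and Cre in amyloid-free microglia. The 34 calls between cell types stayed 32 to 34, and the block changed no other call. The causes were not tested. Of 1044 alternative values of single called genes, 878 kept call and direction, 165 kept direction and lost the call, and 1 reversed. These belong to 58 calls, of which 34 are calls between cell types, where 76.5% of all genes passed, so the total says little about amyloid. For amyloid in microglia, Acaca and Fdps kept the call in 16 of 18 alternatives each, Ebp in 8 and Fdft1 in 6. For the difference between cell types, Acaca kept it in 18 of 18, and Srebf2 and Msmo1 in 5 each. Genes of few reads, such as Scd1 in microglia, are limited by depth, and 2 mice per amyloid-free group limit every amyloid comparison.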

Other observations

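The 2 libraries of mouse 459 held the levels of the other cell type. The library labelled microglia lay within the range of the 13 astrocyte libraries for 33 of the 34 genes and within the microglia range for 3, and the library labelled astrocyte lay within the microglia range for 34 and within the astrocyte range for 4. For Hmgcs1 these were 272 CPM in the library labelled microglia and 58.1 CPM in the library labelled astrocyte, unscaled, with 38.3 to 78.5 CPM in the other microglia and 187 to 520 CPM in the other astrocytes.

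The human genes of the same symbols, 31 of which were in the table, had at most 20 counts in any library, with a median of 0.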
